A study of Mus musculus with 12 samples.

Results

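The imprinted genes of distal chromosome 7 from H19 to Phlda2 were described by the H4K20me3 domains that lie over and between them in mouse embryonic stem cells. The 9 genes H19, Igf2, Ins2, Ascl2, Kcnq1, Kcnq1ot1, Cdkn1c, Slc22a18 and Phlda2 were taken by name from a RefSeq annotation in which 49214 genes were used. Their bodies and the sequence between them were intersected with a list of 28210 domains, of which 7 lay in the region. H4K20me3, trimethylation of histone H4 lysine 20, is a mark of silent heterochromatin. All groups were the cell line dTKO, which carries the alleles Suv39h1fl/fl, Suv39h2-/- and Setdb1fl/fl of 3 genes for methyltransferases of histone H3 lysine 9. Cells were collected 0, 12, 24 and 48 h after auxin (100 μg/ml) was added together with dTAG13 (0.5 μM). Each of the 4 times had 3 replicates, which makes 12 libraries. The list gives each domain by its chromosome and its first and last base. It names no library and separates no parental alleles, so a domain below is a position only, with no level, no time, no allele and no replicate error, and the depth behind it is unknown.

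The region holds 2 neighbouring imprinting domains, each with its own control region, a stretch of DNA that is methylated on the allele from one parent. The H19 control region lies before the H19 start. It is methylated on the paternal chromosome, while on the maternal chromosome it binds the insulator protein CTCF and keeps enhancers away from Igf2. The Kcnq1ot1 control region lies at the Kcnq1ot1 promoter, inside Kcnq1, and is methylated on the maternal chromosome. On the paternal chromosome the promoter is active, and the long antisense RNA made from it silences flanking genes. Methylated alleles of such control regions are known to carry histone H3 lysine 9 and H4 lysine 20 trimethylation. The H19 control region was here represented by a window from 2 to 4 kb before the H19 start and the Kcnq1ot1 control region by a window of 1 kb either side of the Kcnq1ot1 start.

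Promoter sequences of Kcnq1ot1 and Igf2 are shown first, from RefSeq on GRCm38.p6. The Kcnq1ot1 promoter at chr7:143296498-143296797, minus strand, is printed because it lies in the Kcnq1ot1 window. The promoter of the outermost Igf2 start at chr7:142666767-142667066, minus strand, is printed because it was the nearest to a domain of the 8 promoters that RefSeq gives for 5 of the 9 genes. Each runs from 250 bases before to 50 bases after the start, and capitals mark CpG dinucleotides, the sites of DNA methylation.
Kcnq1ot1 promoter: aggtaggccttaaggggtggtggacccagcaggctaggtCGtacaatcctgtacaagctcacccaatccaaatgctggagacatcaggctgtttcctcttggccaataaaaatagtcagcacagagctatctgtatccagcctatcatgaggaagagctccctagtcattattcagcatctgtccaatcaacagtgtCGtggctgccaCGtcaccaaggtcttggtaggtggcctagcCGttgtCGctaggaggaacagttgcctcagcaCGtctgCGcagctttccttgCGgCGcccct
Igf2 promoter: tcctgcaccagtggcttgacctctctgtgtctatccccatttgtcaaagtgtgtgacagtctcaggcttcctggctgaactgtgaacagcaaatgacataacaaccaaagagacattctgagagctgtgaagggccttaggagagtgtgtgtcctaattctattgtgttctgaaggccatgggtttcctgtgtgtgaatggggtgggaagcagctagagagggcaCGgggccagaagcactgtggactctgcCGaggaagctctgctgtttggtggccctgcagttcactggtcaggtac

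The Kcnq1ot1 promoter held 9 CpG dinucleotides in 300 bases and the outermost Igf2 promoter held 2, beside a median of 7 over 32619 promoters. The letters TGCCGC, which the zinc finger protein ZFP57 binds when methylated, were searched on both strands and occurred in neither of these 2 promoters. Of the 8 promoters of these genes, 1 held them, that of the Igf2 start at chr7:142661222-142661521, beside 11.7% of all promoters. Only promoters were searched, so the H19 window and the rest of the Kcnq1ot1 window were not. None of the 8 promoters met a domain, beside 1.96% of all promoters. The H19 promoter was not among them, but a domain spans the H19 start, from 0.746 kb inside the body to 5.55 kb before the start. The Igf2 promoter ended 184 bases from a domain, whereas the Kcnq1ot1 promoter was 54.0 kb from one.

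**Figure D1:**
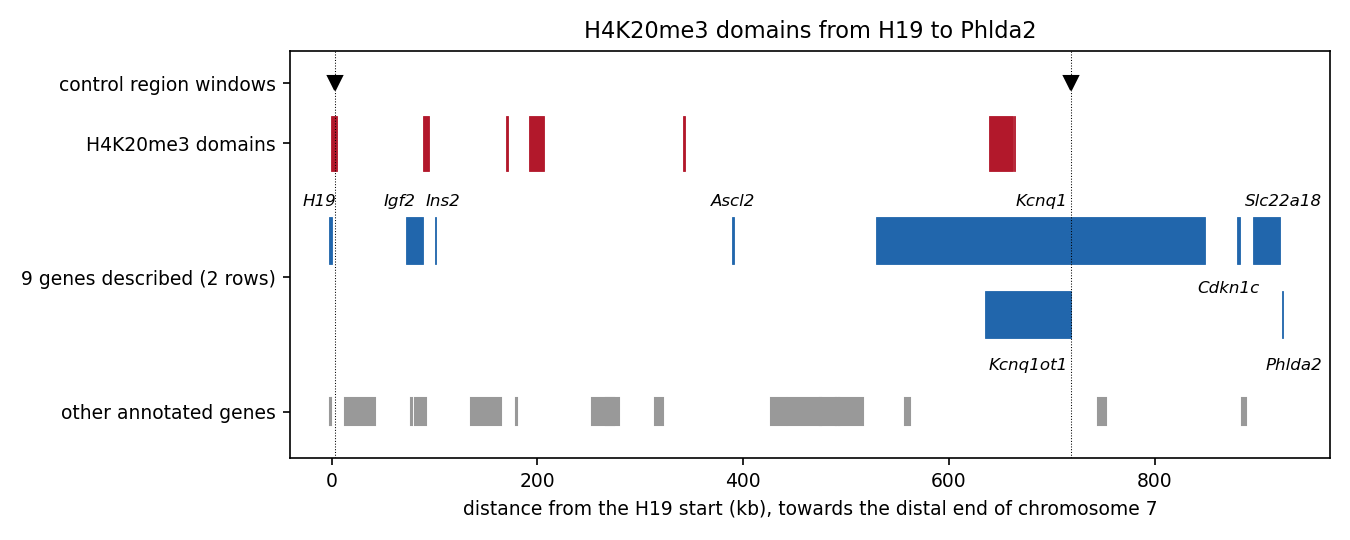
H4K20me3 domains (red), the 9 genes (blue, in 2 rows), the 17 other annotated genes (grey) and the 2 control region windows (black triangles with dotted lines) by distance from the H19 start in kb. A domain lies under the H19 triangle, no domain lies under the Kcnq1ot1 triangle, and the stretch to the right of the Kcnq1ot1 window is empty of domains.

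The window taken for the H19 control region lay wholly inside an H4K20me3 domain. This domain ran from 142577401 to 142583700, 6.30 kb in all, and covered 100% of the window from 2 to 4 kb before the H19 start (142580146 to 142582146). It reached 5.55 kb before the start, which was 88.2% of its width, and went 1.55 kb past the far edge of the window. The remaining 0.746 kb lay in the 5′ part of the H19 body (142575530 to 142578146) and made up the whole of its covered share of 28.5%. The other 1.87 kb of H19, towards its 3′ end, were outside. Across the 32619 promoter entries of the annotation, 3.6% had a domain in the window from 2 to 4 kb before the start and 1.17% had that window wholly in domains. The window was chosen with earlier results of these data known, so these shares describe the setting and are no test. A domain boundary can be placed only to a grid of 150 bases, so the edges given here are no finer than that.

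The microRNA miR-675, which is processed from H19 RNA, came from the part of H19 without a domain. Its hairpin (142577064 to 142577147) ended 253 bases short of the domain. The hairpin of miR-483, within Igf2, lay 12.3 kb from the nearest domain. Of 1003 hairpins in the RefSeq table, 1.1% shared a base with a domain. The mature forms are shown with the seed, bases 2 to 8, in capitals, to identify the products of these hairpins, and no seed is shared among the 4.
mmu-miR-675-5p: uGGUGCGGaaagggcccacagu
mmu-miR-675-3p: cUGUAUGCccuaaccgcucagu
mmu-miR-483-5p: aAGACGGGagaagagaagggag
mmu-miR-483-3p: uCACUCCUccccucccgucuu

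The window taken for the Kcnq1ot1 control region had no domain, and the domains of Kcnq1ot1 lay at the other end of the transcript. None of the window of 1 kb either side of the Kcnq1ot1 start (143295547 to 143297547) was covered, and its nearest domain was 53.0 kb away. From the start itself, the next domain in the direction of transcription lay at 54.0 kb and the next one on the other side at 338.1 kb. Across all promoter entries, 2.95% had a domain within 1 kb of the start, so an uncovered start is the common case. Among the 15029 promoters with at least as many CpG dinucleotides as that of Kcnq1ot1, 1.55% met a domain.

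A pair of domains separated by 1.05 kb covered the 3′ part of Kcnq1ot1 (143213111 to 143296547). The wider one ran from 143216551 to 143240550 and, at 24.0 kb, was the widest of the region. It lay 56.0 to 80.0 kb after the Kcnq1ot1 start and began 3.44 kb from the 3′ end of the gene. Among all 28210 domains, 169 (0.599%) were at least as wide. The narrower one, from 143241601 to 143242500, was the narrowest of the region at 0.900 kb and lay 54.0 to 54.9 kb after the start. The first 64.8% of the transcript was therefore free of domains, and the covered share of the whole was 29.8%.

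**Figure D2:**
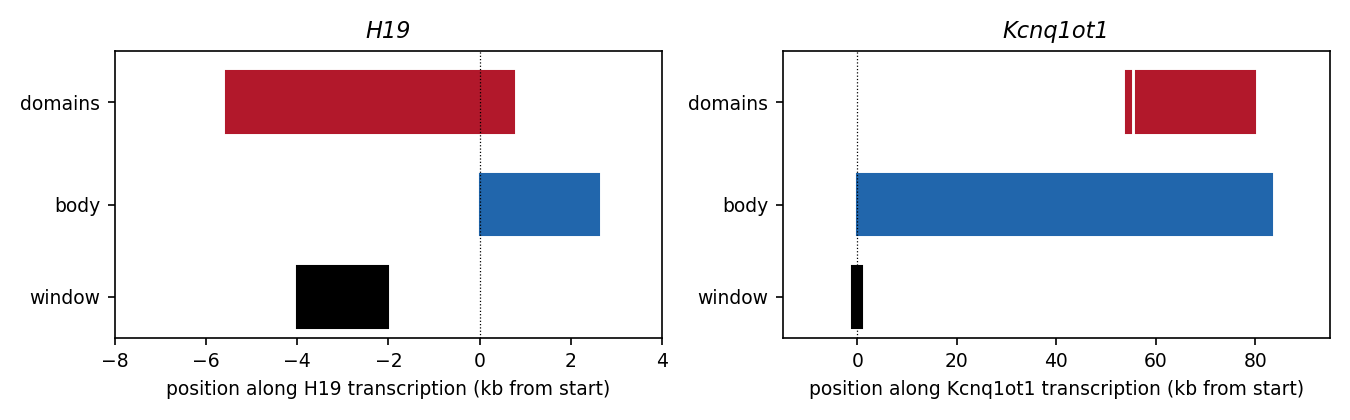
Domains (red), gene body (blue) and control region window (black) along H19 (left) and Kcnq1ot1 (right), in kb from the start in the direction of transcription. At H19 the domain spans the window and the start, and at Kcnq1ot1 the domains begin 54.0 kb after the start.

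Both Kcnq1ot1 domains are at the same time the only domains of Kcnq1, which encodes a voltage-gated potassium channel and contains Kcnq1ot1 within its body (143106877 to 143427050). They covered 24.9 kb, or 7.78%, of its 320.2 kb. The 236.7 kb of Kcnq1 outside Kcnq1ot1 held no domain, neither in the 106.2 kb below Kcnq1ot1 nor in the 130.5 kb above it. The domains began 109.7 kb from the Kcnq1 end that lies nearer to H19. Kcnq1 and Kcnq1ot1 are thus 1 observation, not a pair of separate ones.

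In all, 3 of the 9 genes met a domain, namely both noncoding genes, H19 and Kcnq1ot1, and 1 of 7 protein-coding genes, Kcnq1. The share over the annotation was 13.4% of 12609 long noncoding RNA genes and 14.1% of 21523 protein-coding genes. Since long bodies meet domains more often, each gene is set beside genes of the same biotype with 0.5 to 2 times its length. For H19, 4.18% of 3708 such genes met a domain, and 118 of them (3.18%) had a covered share at least that of H19. For Kcnq1ot1, 47.1% of 1097 such genes met a domain, and 12 (1.09%) had at least its covered share. For Kcnq1, 65.8% of 1192 such genes met a domain, and 48 (4.03%) had at least its share. Meeting a domain was therefore common at the lengths of Kcnq1 and Kcnq1ot1 and uncommon at that of H19. With at least 10% of the body covered as the rule, H19 and Kcnq1ot1 counted and Kcnq1 did not, beside 6.57% of long noncoding RNA genes and 3.91% of protein-coding genes. With 5 kb added on either side of the body, Igf2 counted too, which made 4 of 9, beside 19% of long noncoding RNA genes and 20.6% of protein-coding genes.

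Igf2, Ins2 and Ascl2 had no domain in their bodies, and the distance to the nearest one grew along the chromosome in that order. Igf2, a growth factor gene expressed from the paternal allele (142650768 to 142666816), stopped 434 bases from a domain that ran from 142667251 to 142672800. On the strand of Igf2 this domain of 5.55 kb lies before the outermost start. The other 3 Igf2 promoters in the RefSeq table were 5.73, 8.20 and 9.50 kb from it and held 14, 24 and 7 CpG dinucleotides. The same domain covered 3.11 kb, or 29.1%, of Igf2os, a noncoding gene that overlaps the 5′ part of Igf2, and its other 2.44 kb lay beyond Igf2os.

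Ins2, an insulin gene (142678656 to 142679726), was 5.86 kb from that domain on its other side. The 11.8 kb between Igf2 and Ins2 were 46.9% covered, the largest share of the 7 intervals between neighbouring bodies. Among protein-coding genes, 14.8% were at least as near to a domain as Igf2 and 21.9% at least as near as Ins2. Among genes of like length and biotype, 7.34% met a domain for Igf2 and 3.21% for Ins2.

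Ascl2 (142966822 to 142969264), a transcription factor gene required for the placenta, was 45.6 kb from the nearest domain, beside a median of 38.3 kb over all protein-coding genes. Its promoter, with 23 CpG dinucleotides, was 48.0 kb from a domain. Ascl2 lay in a stretch of 295.4 kb without a domain that reached from 142921201 to 143216550. Of the 28152 stretches between neighbouring domains on chromosomes 1 to 19 and X, 6.17% were at least that long, and 45.8% of protein-coding genes lay wholly inside such stretches. In the class of like length, 3.65% of genes met a domain.

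Cdkn1c, Slc22a18 and Phlda2, the genes beyond Kcnq1, were the farthest of the 9 from any H4K20me3 domain. Cdkn1c (143458339 to 143461059), which encodes an inhibitor of cyclin-dependent kinases, was 173.5 kb from the nearest one. Slc22a18 (143473726 to 143499334), a transporter gene, was 135.3 kb away, and Phlda2 (143501545 to 143503145), whose product restrains placental growth, was 131.5 kb away. All 3 lay above the upper quartile of 114.3 kb for protein-coding genes, with 84.0%, 78.7% and 78.0% of those genes at least as near to a domain. The RefSeq promoters of Slc22a18 and Phlda2, with 2 and 26 CpG dinucleotides, were 160.8 and 131.8 kb from a domain.

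These 3 genes and the Kcnq1ot1 start shared 1 stretch of 392.1 kb without a domain, from 143242501 to 143634600. Stretches at least that long made up 3.53% of all stretches by number and 25.5% of the sequence between domains, and 35.4% of protein-coding genes lay wholly inside one. Among genes of like length and biotype, 3.62% met a domain for Cdkn1c, 10.8% for Slc22a18 and 3.28% for Phlda2, so bodies without a domain are the rule at these lengths.

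**Figure D3:**
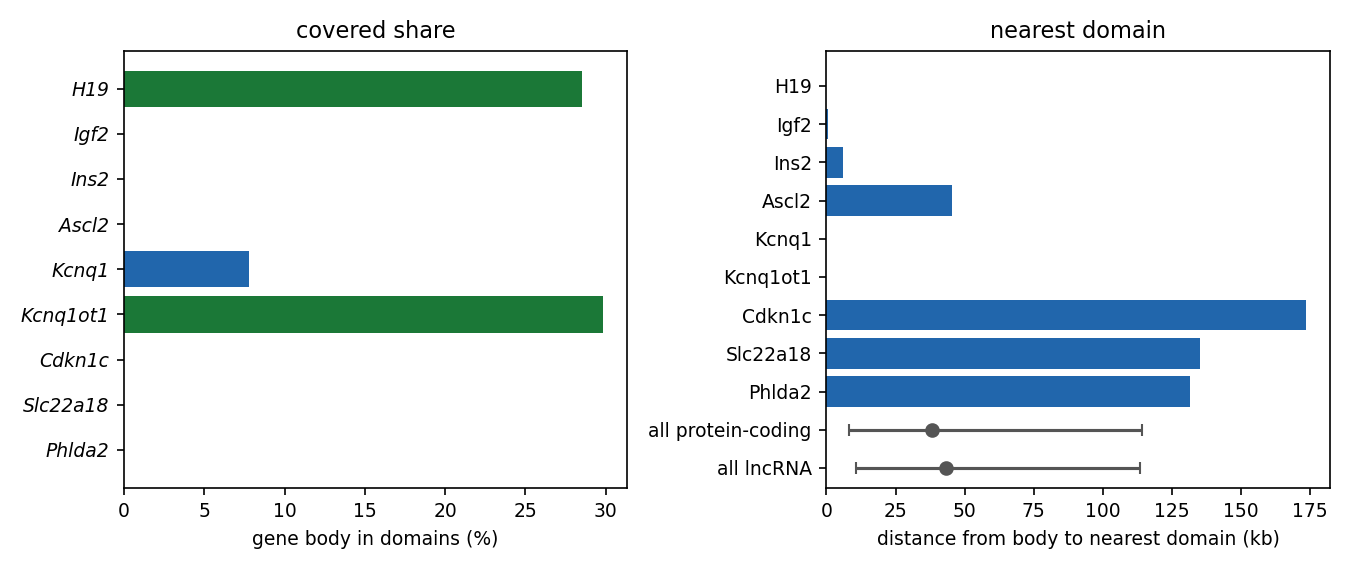
Left, share of each gene body in H4K20me3 domains (%), with noncoding genes in green and protein-coding genes in blue, in chromosomal order. Right, distance from each body to the nearest domain in kb (0 where a domain lies in the body), with the median and quartiles over all protein-coding and all long noncoding RNA genes in grey. Cdkn1c, Slc22a18 and Phlda2 lie beyond the upper quartiles of 114.3 kb and 113.4 kb.

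Outside the 9 gene bodies, the longest interval, 287.1 kb between Ins2 and Ascl2, held 3 domains that met no annotated gene. They lay at 142747501 to 142750050 (2.55 kb wide), 142770451 to 142784850 (14.4 kb) and 142919551 to 142921200 (1.65 kb). Their distances from the Ins2 body were 67.8, 90.7 and 239.8 kb. The domain of 14.4 kb was the second widest of the region, and 2.33% of all domains were at least as wide. Its nearest annotated gene was the pseudogene Gm7290, 12.6 kb away. The nearest gene of the domain of 1.65 kb was Th, the tyrosine hydroxylase gene, at 19.6 kb, and that of the domain of 2.55 kb was the noncoding gene Gm39116, at 4.25 kb. Together the 3 covered 6.48% of the interval. The interval from H19 to Igf2 had 7.65% covered, all of it the part of the H19 domain before the H19 start. The 4 intervals from Ascl2 to Kcnq1, Kcnq1 to Cdkn1c, Cdkn1c to Slc22a18 and Slc22a18 to Phlda2 had none.

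The 17 other annotated genes of the region included 1 with a domain, Igf2os, beside 11.9% of all annotated genes. None of the 5 other protein-coding genes, Th, Tspan32, Cd81, Tssc4 and Trpm5, met one, and they lay 19.6 to 145.5 kb from the nearest. The median over all 17 was 59.8 kb. The other gene nearest to the H19 window on its far side was the noncoding gene Gm33148, 7.96 kb from the H19 domain, and that nearest to the Kcnq1ot1 window was 4933417O13Rik, 80.3 kb from a domain.

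Over the whole region, the 7 domains covered 55.4 kb of 927.6 kb, or 5.97%, beside 4.90% of chromosome 7 and 4.57% of chromosomes 1 to 19 and X beyond the first 3 Mb. They were fewer per length and wider, at 7.55 per Mb with a median width of 5.55 kb, beside 10.97 per Mb on chromosome 7 with a median of 3.15 kb. The 2 widest domains held 69.4% of the covered sequence. Of 2763 windows of the same width tiled along chromosomes 1 to 19 and X, 42.4% had as many domains or fewer and 75.2% had as large a covered share or less. Within chromosome 7 these were 46.4% and 73.2% of 153 windows. The part from H19 to Ins2 was covered over 11.4% of 104.2 kb and the part from Ascl2 to Phlda2 over 4.64% of 536.3 kb, with 2 domains each. No difference between these shares was tested.

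**Figure D4:**
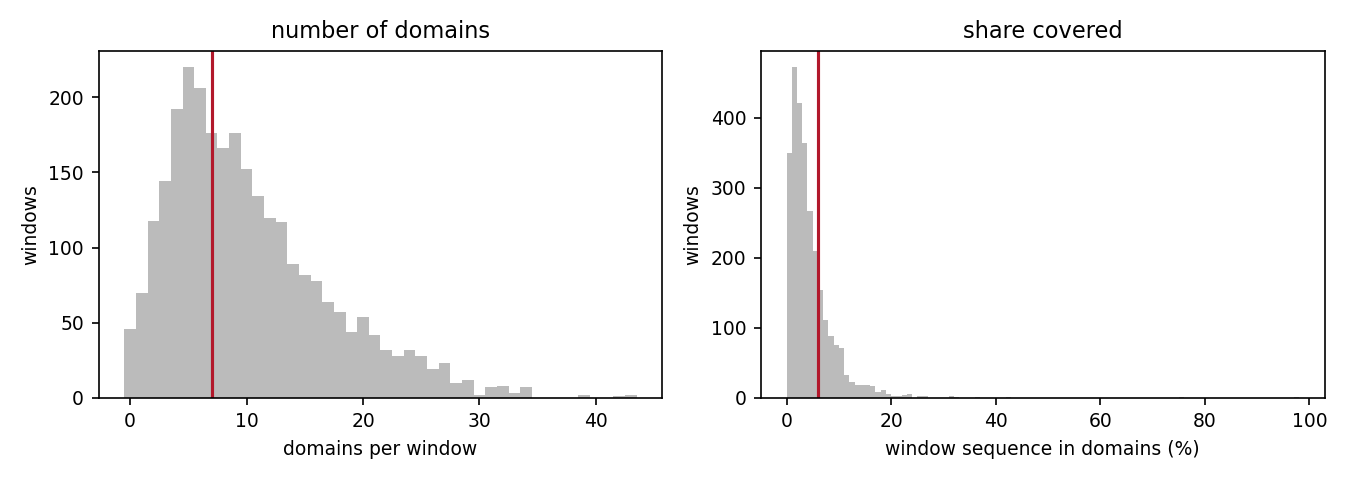
Number of windows of 927.6 kb, tiled along chromosomes 1 to 19 and X, by the number of domains (left) and by the share of sequence in domains in % (right). The red line marks the H19 to Phlda2 region, at 7 domains and 5.97%, with 42.4% and 75.2% of windows at or below it. The share lies just above the upper quartile of 5.92%.

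The region was bordered on both sides by at least 100 kb without a domain. The next domain below H19, 107.0 kb from the H19 body, was 1.35 kb wide and lay in Lsp1, and the next above Phlda2, at 131.5 kb, was 4.95 kb wide and lay over Tnfrsf22. These 2 genes were named after their values were seen.

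A list of 17 genes at or beside other control regions with germline DNA methylation gives the setting of the H19 and Kcnq1ot1 positions. Within 1 kb of either end of the body, 2 of the 17 had a domain, Cdh15 and Inpp5f, beside 6.36% of all annotated genes. By the same measure H19 and Igf2 had one among the 9 genes of the region. At 2 kb both counts were the same, 2 of 17 and 2 of 9, beside 8.31% of all annotated genes. At 5 kb the list still had 2 and the 9 genes had 3, with Kcnq1ot1 added through its 3′ end, beside 14% of all annotated genes. Domains elsewhere in the body lay in Snrpn and Rasgrf1, where they covered 2.95% and 0.383% of the body. The other 13 bodies, among them those of Peg3, Meg3 and Airn, met none. Over all annotated genes, 11.9% had a domain in the body, and long bodies meet domains more often. Control regions deep inside a long body, or farther outside a body than the window, are not seen at its ends. The count is therefore not one of control regions, and it is not the measure used for the H19 and Kcnq1ot1 windows.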

How the data were processed

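H4K20me3 ChIP-seq was made with a Drosophila chromatin spike-in, per the labels' protocols. The submitters' processing notes name Bowtie2 2.3.4.1 and SAMtools 1.1, as well as bedtools and deepTools, and the builds GRCm38, mm10, mm9 and dm6, but no roles. The deposited file is 1 list of domains called by the authors with RSEG, per the file name. The sources used here do not state its version, threshold or input libraries. All but 1 of 28210 domains lie on a grid of 150 bases. The build was taken as mm10 (GRCm38), whose contig names the list uses.

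Starts were converted to count from 1. Of 49997 RefSeq genes (GRCm38.p6), 49214 on chromosomes 1 to 19 and X with a start beyond 3 Mb were used. A gene met a domain when they shared at least 1 base. Distances count the bases between. Strands came from the RefSeq promoter table, which held 8 promoters of 5 of the 9 genes, and for H19 from the miRNA inside it. The control region windows were set from general knowledge of these loci, not from deposited coordinates. Of the list of 17 genes, 16 matched by symbol and 1, Nespas, by a synonym (Gnasas1). No p-value was computed, since the list holds positions alone. By rule, genes named are the 9, other genes of the region with a domain or nearest a control region, and listed genes with a domain at a body end. The genes nearest to a domain without a gene, the other protein-coding genes of the region, Lsp1, Tnfrsf22, Snrpn, Rasgrf1, Peg3, Meg3 and Airn fall outside it and were chosen after their values were seen. The members, lists and windows were chosen with earlier results of these data known. Overlap counting was checked on simulated intervals. Python 3.11.15, numpy 2.4.6, pandas 2.3.3 and matplotlib 3.10.9 were used.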

Additional observations from a re-analysis of the deposited data

How the results depend on the processing

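Merging domains closer than 5 kb moved the covered share to 31.1% for Kcnq1ot1, 8.10% for Kcnq1 and 6.08% for the region. With domains of 1 kb or wider the shares were 28.8%, 7.50% and 5.87%, and with only the wider domains, from the median width up, 28.8%, 7.50% and 5.42%. Adding 100 kb at either end gave 4.91% for the region. The H19 window stayed wholly covered and the Kcnq1ot1 window uncovered under these 3 domain sets and with the wider windows, from 1 to 5 kb before the H19 start and 2 kb either side of the Kcnq1ot1 start. These outcomes could not differ and are no further evidence. The H19 domain of 6.30 kb passes both width cuts and reaches 5.55 kb before the start. No domain lay nearer than 54.0 kb to the Kcnq1ot1 start. The number of the 9 genes with a domain was 3 under the 3 domain sets, 2 with at least 10% of the body covered and 4 with 5 kb added to the body, where the shares over all genes rise as well (20.6% of protein-coding and 19% of long noncoding RNA genes). The count of 3 was bound to stay under the domain sets, since the H19 domain and the Kcnq1ot1 domain of 24.0 kb pass both width cuts. Shares over all genes under those sets are not given here. The counts of 1 other gene of the region and 2 of the 17 listed genes, and the covered share of H19, were the same under the 3 domain sets, and the count of 2 also with windows of 2 and 5 kb, where 8.31% and 14% of all annotated genes had a domain, beside 6.36% at 1 kb. The count of 1 other gene and the H19 share could not change, since the Igf2os domain of 5.55 kb and the H19 domain pass both width cuts. No paired analysis was possible because the list carries no value per sample. For the same reason, no replicate could be left out, and neither decay over time nor depth could be examined.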
